A study of Mus musculus with 4 samples.

Results

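The regions described here are the 2441 CTCF regions of mouse chromosome 19, of 70742 regions on all chromosomes, found in MC3T3-E1 subclone 4 cells. They were obtained by merging the peak lists of 3 days wherever peaks shared at least 1 bp and keeping those on chromosome 19. The proximal stretch, from 3000 to 16500 kb on build mm9, held 829 of them and the rest of the chromosome 1612, with a region placed by its middle. Chromosome 19, and the stretch within it, were chosen by a fall in score rank at day 9 seen in the same lists. The ranks and classes below thus describe both parts of the chromosome and do not test them. The 5 regions nearest to the limit on either side are described with the bins below.

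MC3T3-E1 is a calvaria-derived mouse preosteoblast line, labelled as C57BL/6 and used here as 1 subclone at passages 28 to 31. CTCF was recovered by chromatin immunoprecipitation and sequencing (ChIP-seq), with 1 antibody lot, from proliferating cells at day 0, matrix-depositing cells at day 9 and mineralizing cells at day 28. Osteogenic medium held ascorbic acid and beta-glycerophosphate. The labels state 2 biological repeats per day, but each day has 1 peak list, so there was no replicate error and no test between days could be made. Input DNA of day 9 cells was not analysed here.

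CTCF is a zinc-finger protein that binds DNA through a long recognition motif. Together with the cohesin ring it anchors chromatin loops, and it can act as an insulator between enhancers and promoters. Most CTCF sites are shared between cell types, and the variable sites are often the weakly bound ones. Proximal chromosome 19 is a gene-dense part of the mouse genome; it carries Lrp5, a Wnt co-receptor known for its effect on bone mass, and the long non-coding RNAs Malat1 and Neat1. The gene table at hand is of another build, so no region was assigned to a gene and no motif was searched.

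Chromosome 19 held 2384, 1350 and 1542 peaks in the day 0, day 9 and day 28 lists, which was 3.52%, 3.16% and 3.37% of the lists of those days. In the proximal stretch there were 831, 441 and 507 peaks in these lists, and in the rest of the chromosome 1553, 909 and 1035. The share of its list was thus lowest at day 9 in both parts: 1.03% in the proximal stretch, against 1.23% at day 0 and 1.11% at day 28, and 2.13% in the rest, against 2.29% and 2.26%. Lists differ in length and their read depth is unknown, so counts of different days are not compared further.

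The proximal stretch was crowded with CTCF regions. It held 61.4 regions per Mb, against 35.9 per Mb in the rest of the chromosome. The median distance between the middles of neighbouring regions was 6.02 kb (quartiles 2.68 and 12.8), against 12.7 kb (4.54 and 30.1) in the rest and 13.3 kb (4.82 and 34.1) on the other chromosomes. A region of the stretch had a median of 100 other regions within 500 kb, against 44 in the rest and 43 elsewhere. The bin from 4 to 6 Mb held 268 regions, the most of the 887 bins of 2 Mb in the genome that had at least 10 ranked regions (defined below).

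Peaks of the stretch were also wide, above all at day 0. Their median width at day 0 was 723 bp (quartiles 514 and 1078), against 604 bp (465 and 876) in the rest of the chromosome and 552 bp (432 and 775) over the whole list. At day 9 the medians were 604 bp in the stretch, 545 bp in the rest and 525 bp over the list. At day 28 they were 811 bp, 761 bp and 702 bp in the same order. The day 0 excess over the whole list was the widest of the 3, and the stretch stood above the rest of the chromosome on every day.

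By presence of a peak, the stretch and the rest of chromosome 19 were close to each other in the full lists. Regions with a peak on all days were 392 of 829 (47.3%, 95% Wilson interval 43.9 to 50.7) in the stretch and 800 of 1612 (49.6%, 47.2 to 52.1) in the rest, with 52.3% over all chromosomes. Those that lacked only the day 9 peak were 87 (10.5%, 8.59 to 12.8) in the stretch and 160 (9.93%, 8.56 to 11.5) in the rest. The same class made up 7.53% of regions over all chromosomes. These intervals cover counting error only; they overlap between the parts of chromosome 19, and the class not found at day 9 lies above the genome-wide share in both parts. With each list limited to as many of its highest-scoring peaks as the day 9 list holds, the class not found at day 9 was 53 of 564 (9.40%, 7.26 to 12.1) in the stretch and 68 of 1158 (5.87%, 4.66 to 7.38) in the rest, against 3.97% (3.80 to 4.14) on the other chromosomes.

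Day 0-only regions made up the second largest class. They were 313 (37.8%, 34.5 to 41.1) in the stretch and 537 (33.3%, 31.1 to 35.7) in the rest, with 30.9% (30.6 to 31.3) on the other chromosomes. The stretch had 2 day 9-only regions, 14 day 28-only regions, 19 with day 0 and day 9, and 2 with day 9 and day 28. The rest had 10, 50, 39 and 16 of these. For day 9 only, day 28 only, and day 0 and day 9, the shares were 0.241%, 1.69% and 2.29% in the stretch. They were 0.620%, 3.10% and 2.42% in the rest, against 1.25%, 2.74% and 3.60% over all chromosomes. Regions with day 9 and day 28 peaks but none at day 0 came to 0.241% (0.0662 to 0.875) of the regions of the stretch. That class made up 0.993% (0.612 to 1.61) in the rest and 1.53% (1.44 to 1.62) on the other chromosomes.

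A region with peaks at both ends of the time course can be asked whether it also had one at day 9. It had none in 87 of 479 such regions (18.2%, 14.97 to 21.9) in the stretch, in 160 of 960 (16.7%, 14.4 to 19.2) in the rest of chromosome 19 and in 5077 of 40882 (12.4%, 12.1 to 12.7) on the other chromosomes. The matching loss of the day 28 peak, among regions with peaks at day 0 and day 9, was 19 of 411 (4.62%, 2.98 to 7.11) in the stretch, 39 of 839 (4.65%, 3.42 to 6.29) in the rest and 2492 of 38297 (6.51%, 6.26 to 6.76) elsewhere. In the full lists the missing day 9 peak was thus found at a like rate in both parts of the chromosome.

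At like score, day 0 peaks of both parts of chromosome 19 had a lower share found again at day 9 than those of the other chromosomes. The day 0 list was cut into quintiles by score, with bounds taken over all chromosomes, and each peak was scored as overlapped or not by a day 9 peak (59.1% of the whole day 0 list). In the middle quintile, 62 of 148 peaks of the stretch (41.9%, 34.2 to 49.9) were overlapped, against 145 of 298 (48.7%, 43.04 to 54.3) in the rest and 64.4% (63.6 to 65.2) on the other chromosomes. In the second lowest quintile the shares were 12.8% (8.37 to 19.2) in the stretch, 17.9% (14.02 to 22.7) in the rest and 26.6% (25.9 to 27.4) elsewhere. Both parts of chromosome 19 lay below the other chromosomes here. As for the classes, the intervals cover counting error only. Chromosome 19 and the stretch were chosen by their day 9 fall in these same lists, so these shares describe both parts and do not test them.

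Among stronger day 0 peaks the stretch stood lowest as well. In the second highest quintile, 126 of 150 (84.0%, 77.3 to 89.0) were overlapped at day 9, against 92.4% (88.8 to 94.9) in the rest and 95.4% (94.9997 to 95.7) elsewhere. In the highest quintile nearly every peak was found again, 202 of 203 in the stretch and 356 of 356 in the rest. The weakest quintile gave 4.95% (2.62 to 9.13) in the stretch, 7.14% (4.76 to 10.6) in the rest and 10.6% (10.1 to 11.1) elsewhere.

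At day 28 the gap to the other chromosomes was smaller in the second lowest, middle and second highest quintiles (63.7% of the whole day 0 list was overlapped then). In the middle quintile, 65.5% (57.6 to 72.7) of the stretch's peaks, 67.8% (62.3 to 72.8) of the rest's and 71.5% (70.7 to 72.3) of the others' were overlapped by a day 28 peak. In the second highest quintile the shares were 94.0% (88.99 to 96.8), 94.8% (91.6 to 96.8) and 96.7% (96.4 to 97.0) in the same order. The second lowest quintile gave 23.6% (17.5 to 31.1) in the stretch, against 34.2% (29.1 to 39.7) in the rest and 34.7% (33.9 to 35.5) elsewhere.

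**Figure D1:**
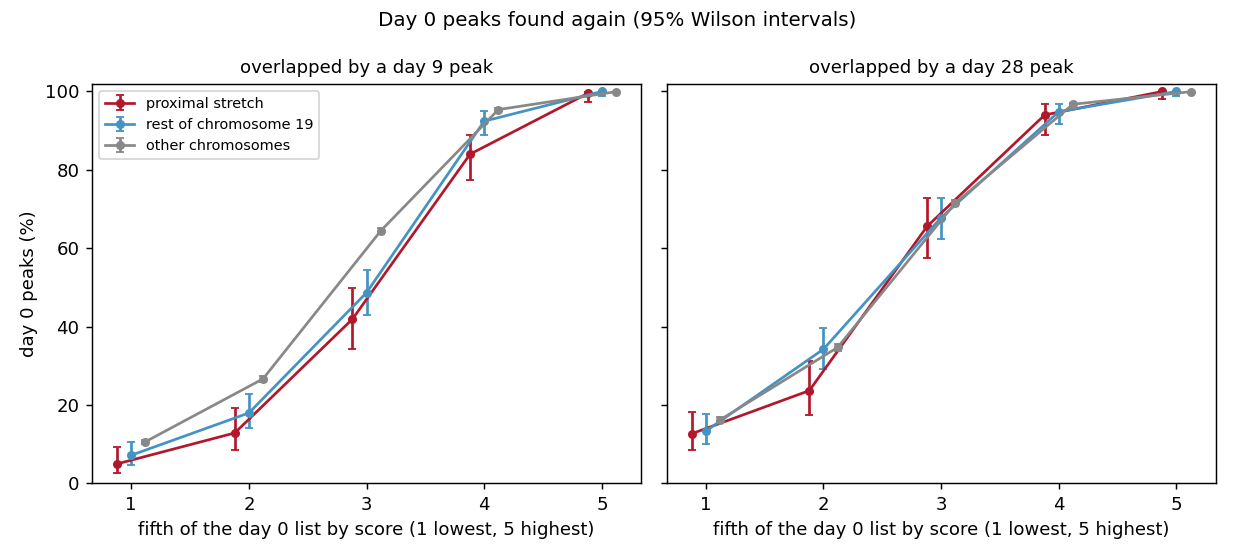
Share of day 0 peaks (in percent, with 95% Wilson intervals) overlapped by a day 9 peak (left) or a day 28 peak (right), by quintile of day 0 score, for the proximal stretch of chromosome 19, the rest of the chromosome and the other chromosomes. At day 9 both parts of chromosome 19 lie below the other chromosomes in the middle quintile (41.9% and 48.7%, against 64.4%); at day 28 the 3 groups lie close together there (65.5%, 67.8% and 71.5%).

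The numbering of the peaks was compared as well. The deposited peaks keep the number the caller gave them, and numbers are skipped between listed neighbours; what the skipped numbers stood for is not given in the sources used here. At day 9, 215 numbers were skipped beside 440 listed ones in the stretch (32.8%, 29.3 to 36.5), against 30.5% (28.0 to 33.0) in the rest and 32.7% (32.3 to 33.1) over all chromosomes. At day 0 the shares were 32.8% (30.2 to 35.5) in the stretch, 34.8% (32.9 to 36.8) in the rest and 29.7% (29.4 to 30.0) over all chromosomes. At day 28 they were 26.1%, 25.2% and 25.9%. The share of skipped numbers was thus near that of the genome in both parts at day 9, and above it in both at day 0.

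Strength was compared by rank. The score deposited for each peak, taken to be −10 log10 of the caller's p-value, was ranked over regions that held a single peak per list and no score at the saturated value of 3100 or above. This left 192 of the 829 regions of the stretch and 442 of 1612 in the rest, of 23673 ranked regions in all. Of the 392 regions of the stretch with a peak on all days, 36 had several peaks in some list and 164 were saturated in at least 1 list; of the 800 in the rest, these numbers were 53 and 305. Percentiles run from 0 (weakest) to 100 and were computed in each list over the same 23673 regions. A ranked region has by construction a day 9 peak, so regions whose day 9 peak was lost do not enter.

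Ranked regions of the stretch stood above the middle of all ranked regions at day 0 and below it at both later days. Their median percentiles were 58.8 (quartiles 37.5 and 79.5), 36.96 (18.98 and 60.8) and 44.3 (23.9 and 65.4) for day 0, day 9 and day 28. In the rest of the chromosome the medians were 52.9 (28.2 and 78.1), 45.8 (23.2 and 69.98) and 53.9 (30.6 and 79.6) on the same days. The rest thus stood lower at day 9 and was at day 28 about where it had been at day 0, while the stretch regained only part of its fall. Among all peaks, saturated ones included, the median score of the stretch was above that of the whole list on each day. It was 595.1 against 552.6 at day 0, 557.3 against 502.2 at day 9, and 747.4 against 659.4 at day 28.

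**Figure D2:**
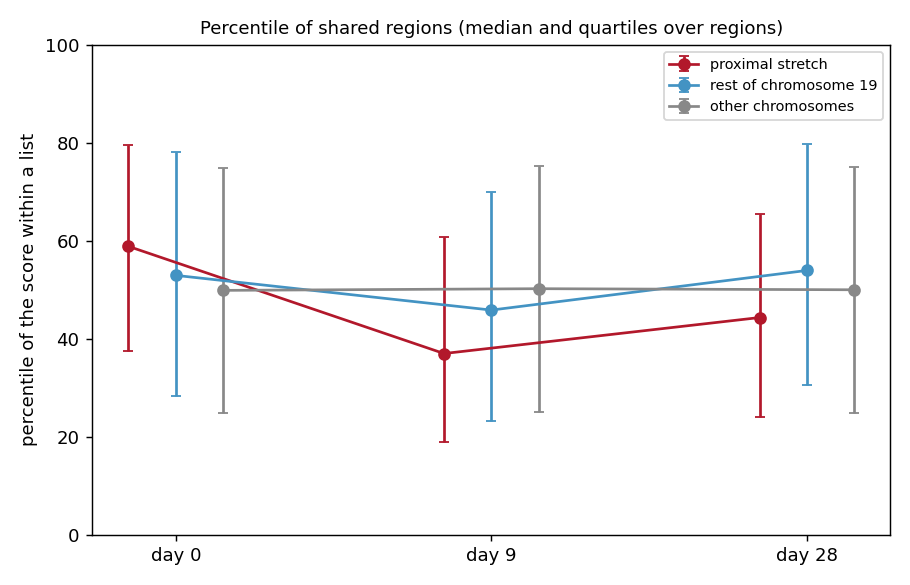
Percentile of the score within each list (0 to 100) at day 0, day 9 and day 28 for the 192 ranked regions of the proximal stretch, the 442 of the rest of chromosome 19 and the 23039 of the other chromosomes; points are medians and bars run between the quartiles over regions, not replicates. The stretch has medians of 58.8, 36.96 and 44.3, and the rest of the chromosome 52.9, 45.8 and 53.9.

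Region by region, the day 9 minus day 0 difference of percentile had a median of -17.5 points (quartiles -31.9 and -5.95) in the stretch and -6.23 (-21.6 and 7.21) in the rest. A difference of at least 10 points was taken as a change. By that rule 125 of 192 regions of the stretch (65.1%) stood lower at day 9 and 187 of 442 (42.3%) in the rest, against 30.6% of all ranked regions. Those that stood higher by as much were 16 (8.33%) in the stretch and 97 (21.9%) in the rest, against 30.1% of all. These are the values by which chromosome 19 and the stretch were chosen, and nothing is read from them beyond their size. Over the whole chromosome, 49.2% of ranked regions stood lower by at least 10 points.

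The step that followed had like medians in both parts, though not by width or within classes of crowding (given below). The day 28 minus day 9 difference had a median of 6.72 points (quartiles -3.32 and 14.6) in the stretch and 6.93 (-2.77 and 16.45) in the rest, against -0.456 on the other chromosomes. Regions higher by at least 10 points at day 28 than at day 9 were 70 (36.5%) in the stretch and 181 (40.95%) in the rest, against 24.3% of all ranked regions; 30 (15.6%) and 58 (13.1%) stood lower by as much, against 25.5% of all. From day 0 to day 28 the parts therefore differed: the median was -11.2 points (-26.8 and 0.179) in the stretch and 0.178 (-17.9 and 17.98) in the rest. Lower by at least 10 points at day 28 than at day 0 were 98 regions (51.0%) of the stretch and 161 (36.4%) of the rest, against 33.8% of all, and higher by as much were 31 (16.1%) and 161 (36.4%), against 32.4% of all. The 3 differences share their lists, so each is given for itself.

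A strict dip was a fall of at least 10 points at day 9, then a rise of at least 10 at day 28. It was seen at 50 regions of the stretch (26.0%, 20.4 to 32.7) and 90 of the rest (20.4%, 16.9 to 24.4), against 9.95% of all ranked regions. Chromosome 19 and the stretch were chosen by the day 9 fall, so this excess was partly fixed beforehand. Among regions that fell, the rise followed at 50 of 125 in the stretch, 90 of 187 in the rest and 2356 of 7248 over all chromosomes. At only 23 regions of the stretch (11.98%, 8.12 to 17.3) and 50 of the rest (11.3%, 8.69 to 14.6) did that rise bring the region back to less than 10 points below its day 0 percentile, against 6.18% of all. Of the 125 regions of the stretch that fell at day 9, 60 moved by less than 10 points afterwards and 15 fell by at least another 10. Over all chromosomes these were 3418 and 1474 of the 7248 that fell. In the stretch, 90 of the 125 (72.0%, 63.6 to 79.1) were still at least 10 points below day 0 at day 28. That last share was 69.5% (62.6 to 75.7) in the rest and 74.4% (73.3 to 75.4) on the other chromosomes. A dip with return thus describes a minority of the ranked regions of the stretch.

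**Figure D3:**
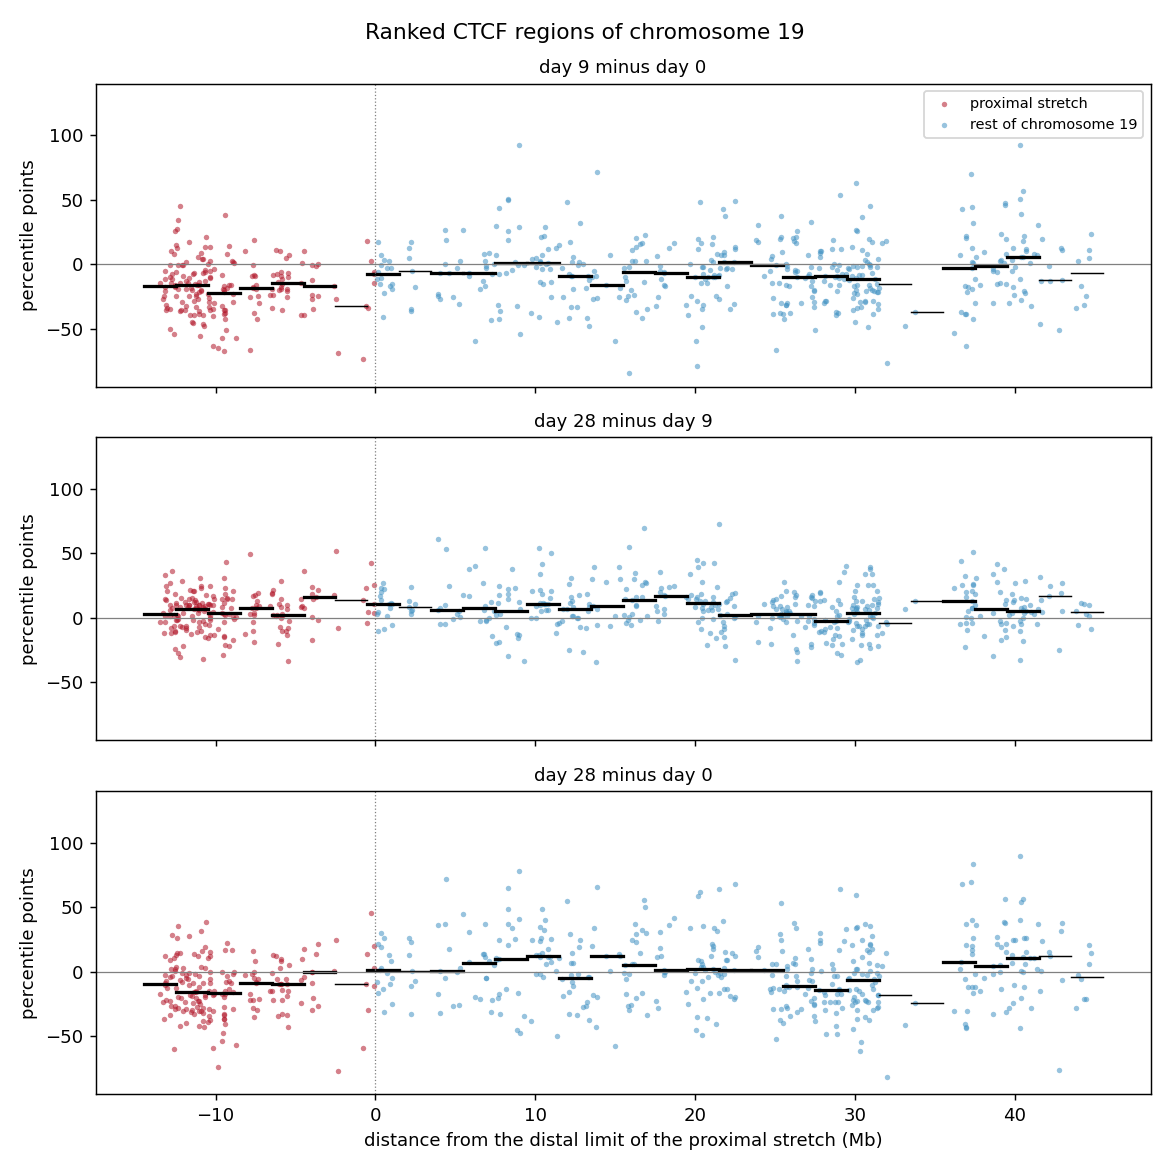
Difference of percentile (points) for each ranked region of chromosome 19 against its distance in Mb from the distal limit of the proximal stretch, for day 9 minus day 0 (top), day 28 minus day 9 (middle) and day 28 minus day 0 (bottom); black bars are medians of 2 Mb bins, thin where a bin held under 10 ranked regions. The 6 bins left of the limit with at least 10 regions have day 9 minus day 0 medians between -22.3 and -14.5, and in the middle panel the medians of both parts lie mostly above 0.

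Medians of 2 Mb bins were below 0 along the stretch, although single regions within the bins were not all lower. Its 6 bins of 2 Mb with at least 10 ranked regions, between 2 and 14 Mb, had day 9 minus day 0 medians from -22.3 (6 to 8 Mb, 42 regions) to -14.5 (10 to 12 Mb, 26 regions). All 6 were past -10 points, as were 3 of 18 such bins in the rest of the chromosome, 77 of 863 on the other chromosomes and 9.7% of all. The bin from 16 to 18 Mb, counted with the rest, straddles the limit, and 5 of its 21 ranked regions belong to the stretch. The bin at 6 to 8 Mb was the 11th lowest of 887, and the 10 lower ones lay on other chromosomes. Among these were chromosome 5 at 126 to 128 Mb (-43.1, 11 regions), chromosome X at 156 to 158 Mb (-34.2, 15 regions) and chromosome 12 at 24 to 26 Mb (-27.2, 30 regions), so bins with a fall as large were found elsewhere. Runs of such bins were found elsewhere too. On chromosome X, all bins from 130 to 162 Mb with at least 10 ranked regions had medians from -34.2 to -13.5. Their day 28 minus day 9 medians ran from 14.3 to 25.4. On chromosome 12, the bins from 18 to 26 Mb had day 9 minus day 0 medians from -29.6 to -12.7. The sparse end of the stretch, from 14 to 16 Mb, had 5 ranked regions with a median of -32.5.

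In the rest of the chromosome the bins past -10 points lay at 30 to 32 Mb (-15.9, 11 regions), 46 to 48 Mb (-11.8, 56 regions) and 42 to 44 Mb (-10.3, 34 regions). The highest bin was at 56 to 58 Mb, with a median of 5.53 points over 26 regions. Day 28 minus day 9 medians were above 0 in all 6 bins of the stretch, from 2.58 to 15.9 points. The same held for 17 of 18 in the rest, the exception being 44 to 46 Mb with -2.57. On the other chromosomes 431 of 863 bins were above 0.

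By day 28 the bins had parted. At 4 to 6 Mb and 6 to 8 Mb the day 28 minus day 0 medians were -15.3 and -16.4 points, while at 12 to 14 Mb the median was -0.0401. In the rest of the chromosome, 44 to 46 Mb had -14.2 and 42 to 44 Mb -11.05, near those at 4 to 8 Mb, while its most crowded bin, at 46 to 48 Mb with 180 regions, had -6.68. Other bins of the rest, such as 24 to 26 Mb (10.3) and 26 to 28 Mb (12.3), stood higher at day 28 than at day 0.

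The ranked regions nearest to the limit at 16500 kb are too few and too scattered to show or exclude an edge there. The 3 ranked regions just inside it, at 16433258, 16427938 and 16417105, had day 9 minus day 0 differences of -7.77, -5.97 and -14.6 points, and the next inside, at 16213992 and 16058831, had 2.55 and -34.2. Just outside it, the regions at 16603649, 16632298, 16659366, 16802867 and 16847641 had -11.5, -6.15, 16.9, -15.3 and 7.19 points. The values on the 2 sides overlap. The bin medians were -17.3 at 12 to 14 Mb and -32.5 at 14 to 16 Mb (5 regions). Further on they were -7.77 at 16 to 18 Mb, across the limit, and -5.56 at 18 to 20 Mb (7 regions).

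Position among other CTCF regions was compared because the stretch is crowded. Over the genome's 887 bins, the number of regions per bin and the median shift had a Spearman's rho of -0.167 for day 9 minus day 0, -0.327 for day 28 minus day 9 and -0.374 for day 28 minus day 0. Over the 24 such bins of chromosome 19 rho was -0.314, -0.521 and -0.565 for these differences, and over the 863 bins of the other chromosomes -0.160, -0.344 and -0.369. Bins of a chromosome share their lists and neighbours, base composition could not be read, and these values are descriptions with no test. Crowded bins thus tended to stand lower at day 28 than at day 0, on chromosome 19 and elsewhere.

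The day 9 minus day 0 values below are those by which chromosome 19 and the stretch were chosen. They are split by crowding as a description, and whether crowding accounts for them was not tested. Among ranked regions in the most crowded quartile, with at least 65 others within 500 kb, the median day 9 minus day 0 difference was -17.6 points in the stretch (152 regions), -9.75 in the rest (118) and -2.01 on the other chromosomes (5537). In the second most crowded quartile it was -14.6 (15 regions), -6.32 (107) and 0.982 (5607) in the same order, in the next -14.6 (12), -4.19 (139) and 1.34 (5867), and in the least crowded, with at most 26 others, -24.9 (13), -6.84 (78) and 0.716 (6028). For day 28 minus day 9, from the most to the least crowded quartile, the stretch had 6.28, 3.86, 6.68 and 14.5 points and the rest 2.92, 9.69, 8.41 and 9.13. For day 28 minus day 0 the most crowded quartile had -12.9 points in the stretch, -10.4 in the rest and -5.13 elsewhere. The median of the rest was above that of the stretch by 2.51 points there, and by 17.9, 5.12 and 8.73 points in the other quartiles, from more to less crowded, where the stretch had 12 to 15 regions each. The most crowded quartile has no upper bound. Its regions had 67 to 145 others within 500 kb in the stretch but 65 to 98 in the rest, so the parts are not of like crowding there.

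**Figure D4:**
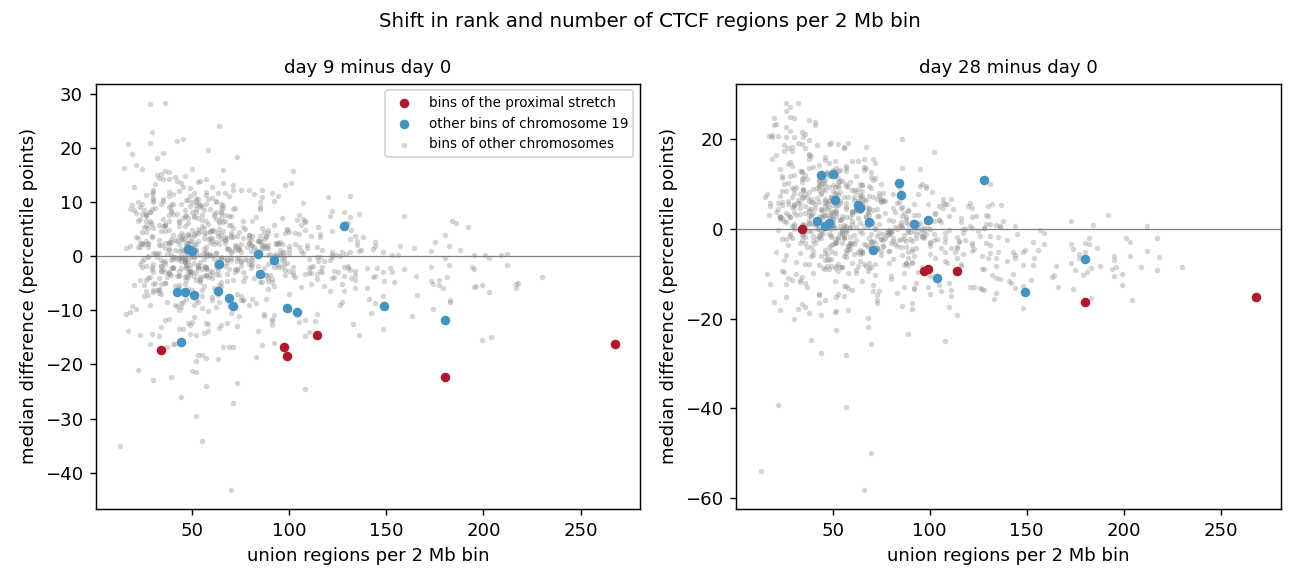
Median difference of percentile (points) of each 2 Mb bin with at least 10 ranked regions, against the number of CTCF regions in the bin, for day 9 minus day 0 (left) and day 28 minus day 0 (right); red points are bins of the proximal stretch, blue points other bins of chromosome 19, grey points bins of other chromosomes. The 6 red points lie between -22.3 and -14.5 on the left, at 34 to 268 regions per bin.

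The same values were split by starting rank, again as a description of the choice and no test of it. Among regions in the highest tertile at day 0, the median day 9 minus day 0 difference was -24.6 points in the stretch (77 regions), -11.3 in the rest (162) and -4.25 on the other chromosomes (7652). In the middle tertile it was -19.3 (74 regions), -11.1 (154) and -1.86 (7663), and in the lowest tertile -6.29 (41), 7.34 (126) and 8.37 (7724), in the same order.

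The strongest sites are hidden from these ranks by saturation. Of the stretch's 356 regions with 1 peak in each list, 161 (45.2%, 40.1 to 50.4) were saturated in the day 0 list. At day 9 and day 28 these numbers were 59 (16.6%) and 119 (33.4%). For the 3 days the shares were 39.6%, 13.1% and 28.1% in the rest of the chromosome, against 31.7%, 12.4% and 22.0% on the other chromosomes. Left out of the ranks by saturation in at least 1 list were 164 of these 356 regions. In the rest they were 305 of 747, and on the other chromosomes 11229 of 34268. Of those saturated at day 0, 59 of 161 (36.6%, 29.6 to 44.3) were also saturated at day 9 in the stretch, against 98 of 296 (33.1%, 28.0 to 38.7) in the rest and 38.9% (38.0 to 39.9) on the other chromosomes. At day 28 the shares were 72.0% (64.7 to 78.4), 67.9% (62.4 to 73.0) and 66.0% (65.1 to 66.9). The share still saturated at day 9 was thus not lower in the stretch than in the rest, with intervals that overlap. Both day 9 shares were below that of the other chromosomes, but their intervals overlap its interval. How far the sites that lost saturation fell was not measured, because their day 0 scores are capped. With saturated regions kept in the ranks as ties, the median day 9 minus day 0 difference was -8.23 points in the stretch and -2.80 in the rest, and that of day 28 minus day 0 was -0.594 in the stretch and 4.88 in the rest.

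Width, which the ranking by score did not use, was ranked in the same way, though it comes from the same reads. The median day 9 minus day 0 difference in width percentile was -7.61 points in the stretch and -4.07 in the rest, against 1.83 on the other chromosomes. From day 9 to day 28 it was -0.130 in the stretch and 4.06 in the rest, against -1.28 elsewhere.

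The named regions show how single sites made up these medians. The lowest day 9 minus day 0 difference in the stretch was at 15723774 to 15724375, with day 0, day 9 and day 28 scores of 2601, 161.4 and 310.1 and percentiles of 92.5, 19.1 and 33.1. The region at 14154970 to 14155479 scored 2952, 203.8 and 218.2 on the same days and had only 8 other regions within 500 kb. At day 28 their percentiles were still -59.4 and -76.7 points from day 0. The region at 8643820 to 8644467 came back in part, with day 0, day 9 and day 28 percentiles of 68.3, 1.46 and 51.2. At 6652687 to 6653290 the day 28 percentile was lower still, with 76.8, 11.5 and 3.23 on the 3 days, and at 6995283 to 6997571, a region of 2289 bp, it was 76.4, 8.85 and 40.1.

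Exceptions were found in the stretch too. Of the 5 ranked regions that stood highest at day 9 relative to day 0, 4 lay between 3966222 and 4243115, a span of 277 kb. The highest, at 4242296 to 4243115, had day 0, day 9 and day 28 percentiles of 9.00, 54.1 and 24.0. At 4172644 to 4173444 they were 1.49, 35.6 and 36.7, and at 4080473 to 4081228 they were 40.0, 67.5 and 66.1. All 11 ranked regions in that span, a window chosen after its values were seen, had a median of 12.4 points, with 6 higher at day 9, each by at least 10 points, and 3 lower by at least 10. The other 10 regions of the stretch that stood higher by at least 10 points lay outside that span.

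The strongest sites with no day 9 peak differed in rank at the other days. The first in the stretch, at 3685540 to 3687633, is 2094 bp wide and scored 1752 at day 0 and 1105 at day 28, above 71.9% and 59.8% of the peaks of these lists. The next, at 5802951 to 5804344 and 5885720 to 5886519, scored 1303 and 961.2 at day 0, above 66.8% and 61.3% of that list, and 427.6 and 421.0 at day 28, above 41.6% and 41.2%. All 3 had over 100 other regions within 500 kb. In the rest of the chromosome the strongest such site, at 60236748 to 60237274, scored 1657 at day 0 and 692.2 at day 28, above 71.0% and 51.0% of these lists. Another pair lay close together, at 31752857 (665.0 and 461.9) and 31841343 (358.4 and 421.2).

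Regions that moved the other way were found in the rest of the chromosome. At 25511035 to 25512338 the scores were 197.2, 1570 and 1510 for day 0, day 9 and day 28, which took its percentile to 97.0 at day 9, against 4.88 at day 0. The region at 56808415 to 56809195 had scores of 159.3, 1376 and 2131 on the 3 days. Both kept their higher rank at day 28. The region at 38553357 to 38554165 had no day 0 peak and scored 1828 at day 9 and 2508 at day 28, and a second region of that class lay near it, at 38640899 to 38641730, with 338.3 and 1671. In the stretch the class was limited to 10361040 (175.6 at day 9 and 275.4 at day 28) and 3338872 (206.4 and 169.4).

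Sites found on a single day were ranked by score within their own list. The highest day 0-only regions lay at 15373919 (1384), 13887242 (1281) and 5962558 (1279); the first 2 are isolated, with 3 and 7 other regions within 500 kb. The highest day 28-only region, at 3429086 to 3429809, scored 640.0. The day 9-only regions lay at 9206702 to 9206865, 164 bp wide with a score of 222.2, and at 7350382 to 7350953 with 122.8. In the rest the highest day 0-only region was at 52153448 to 52154028 with 1962, and the highest day 28-only region at 29186778 to 29187584 with 927.0.

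The widest regions with a peak on all days were mostly saturated. In the stretch they lay at 5842914 to 5846520 (3607 bp), 5566059 to 5569533 (3475 bp) and 6260105 to 6263521 (3417 bp), the last 2 saturated on all 3 days. The first was made of scores of 1779, 592.9 and 617.3 at day 0, day 9 and day 28. In the rest of the chromosome all 3 lay within 48.2 kb, at 45103987, 45148173 and 45120407, with widths of 3991, 3973 and 3264 bp. Each was saturated on all days except the last of them, which scored 2337 at day 9.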

How the data were processed

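The authors deposited 1 peak list per day, each peak with a position on mm9 and a score; the tools named are MACS 1.4.1, Bowtie 0.12.8 and CASAVA 1.6, per the submitters' processing notes. How the repeats and the input entered is not given in the sources used here. Deposited scores start at 100 and are saturated at 3100; values above 3100 were treated as tied. The read depth is unknown, so scores were used only within a list.

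Lists were merged with bedtools 2.31.1 and analysed in Python 3.11.15 with pandas 2.3.3 and scipy 1.17.1; the merging and ranking were checked on simulated data. Positions count from 1. Named regions are, in each part of the chromosome, the 5 lowest and 5 highest in day 9 minus day 0 percentile, the 5 strongest regions without a day 9 peak, the 3 strongest of each other class, the 3 widest, and the 5 nearest to 16500 kb. Not all of them are printed. The stretch, the regions and these rules were chosen with earlier results of these data known. No sequence is printed, because no genome of the build was used here. With 1 list per day no test was made; alternatives are given in the closing section.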

Additional observations from a re-analysis of the deposited data

How the results depend on the processing

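Of 100 values recomputed under an alternative, 71 stayed within the 95% interval (Wilson, or binomial for a median) of the reported value and 29 moved out of it. No median past 10 points changed sign, but smaller ones did. Day 28 minus day 9 in the stretch went from 6.72 to -0.130 when ranked by width. Day 28 minus day 0 in the rest went from 0.178 to -0.718 with lists of equal size. Limits at 15 or 18 Mb, an overlap of 50% of the shorter peak, keeping regions with several peaks, and subtracting the median of the same decile of mean percentile moved none of the values they were tried on. The corrections for local density and for day 0 percentile, and equal list size for the ranks, were added after seeing the data. The depth behind the lists is unknown and limits every share.

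With saturated regions kept, medians in the stretch and the rest became -8.23 and -2.80 (day 9 minus day 0), 2.69 and 3.66 (day 28 minus day 9), and -0.594 and 4.88 (day 28 minus day 0); on the other chromosomes they were 0.961, -1.17 and 4.87. By construction a region saturated in all lists then has day 0, day 9 and day 28 percentiles of 84.0, 93.8 and 88.9. With scores of at least 200, the stretch had -24.0 (day 9 minus day 0) and 9.67 (day 28 minus day 9), the rest had 10.1 (day 28 minus day 9), and regions on all days were 52.9% of the rest. Ranked by width, the stretch had -7.61, -0.130 and -4.57 for the 3 differences in that order, and the rest had 4.06 for day 28 minus day 9. Less the median of regions of like local density, the stretch had 9.22 (day 28 minus day 9) and -8.02 (day 28 minus day 0), and less that of like day 0 percentile the rest had 2.97 for day 28 minus day 0.

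Equal list size (42774 peaks per list, the strongest) raised the share of regions on all days to 66.1% in the stretch and 64.8% in the rest, and lowered the class without a day 9 peak to 5.87% in the rest. Day 0 peaks overlapped at day 9 were then, from the weakest quintile up, 22.5%, 59.6%, 82.2%, 98.0% and 100% in the stretch and 31.3%, 64.8%, 91.2% and 99.0% in the lowest 4 quintiles of the rest. This setting drops the weakest day 0 peaks, so its quintiles hold other peaks. The share was lower in the stretch in those 4 quintiles, but the Wilson intervals of the parts overlap in each. In the middle quintile they were 73.6 to 88.4 in the stretch and 86.0 to 94.6 in the rest. In the second highest quintile the shares were 50 of 51 and 104 of 105. No paired analysis was possible because each day has 1 list.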
